A study of Mus musculus with 6 samples.

Results

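Intermediate filaments are the third filament system of the animal cell beside actin and microtubules, and 7 genes of that family were followed here of the 22057 genes in the deposited table. They were chosen by symbol: Gfap, Vim, Nes and Synm, whose proteins form or join cytoplasmic filaments, and Lmna, Lmnb1 and Lmnb2, which encode the nuclear lamins. All 7 were found, and all 7 passed the minimum of a mean normalized count of 10 over the 6 libraries, as did 17068 genes in all. Polyadenylated RNA came from cultured neural progenitor cells of p53-null mice, labelled as lacking the tumour suppressor p53 in both groups. The EF group (n = 3) was kept for 4 days in stem cell medium with EGF, FGF and heparin, and the design names it the control. The PDGFA group (n = 3) had 4 days with PDGFA, platelet-derived growth factor A, given in the labels as 20ug/ml. Cells of mice 62, 68 and 69 entered both groups, 1 library each. Because EGF, FGF and heparin were absent where PDGFA was present, no factor was varied alone. Age, passage and the p53 allele are not given by the labels.

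An intermediate filament protein has a central rod that pairs with a second molecule into a coiled coil, and these dimers pack side by side into rope-like filaments without a fixed polarity. Neural stem and progenitor cells are known for vimentin with nestin and synemin as partners, and astrocytes for glial fibrillary acidic protein (GFAP). Lamins form the meshwork under the inner nuclear membrane, where B-type lamins keep a lipid anchor and mature lamin A has lost its own. During mitosis the lamina and many cytoplasmic filaments come apart when kinases phosphorylate their subunits.

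The libraries held 27270246 to 39601349 reads recovered from the deposited values, with size factors of 0.782 to 1.18. The normalized count used below is a gene's read count divided by that size factor. In EF, Egfr, the receptor for EGF, stood at 28914 ± 2928 (SD, n = 3) and the division marker Mki67 at 26210 ± 8172, and in PDGFA at 4975 ± 2231 and 203 ± 55.3. Of the 10 neural stem and progenitor markers, 4 fell, among them Egfr, and 4 rose, namely Sox2, Hes5, Msi1 and Prom1. By the same test, described below, 18.0% of all tested genes fell and 21.8% rose. The rises of Sox2 and Prom1 were each called in only 2 of the 6 fits with 1 library left out. Replicates spread more in EF: the median SD of log2 values over the tested genes was 0.380 in EF and 0.172 in PDGFA. The labels name mice but do not say whether the cultures were handled separately, so p-values measure the spread between these libraries.

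With PDGFA, Gfap and Lmna rose, and Vim, Nes, Lmnb1 and Lmnb2 fell. Synm did not pass the test. Fold changes are differences of log2(normalized count + 1), tested with limma, two-sided, with Benjamini-Hochberg adjustment over the 17068 genes at 0.05. That test called 39.8% of all tested genes, 21.8% higher and 18.0% lower, with a median log2 fold change of -0.01. The 6 called genes of these 7 stand beside that background of 39.8%.

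**Figure D1:**
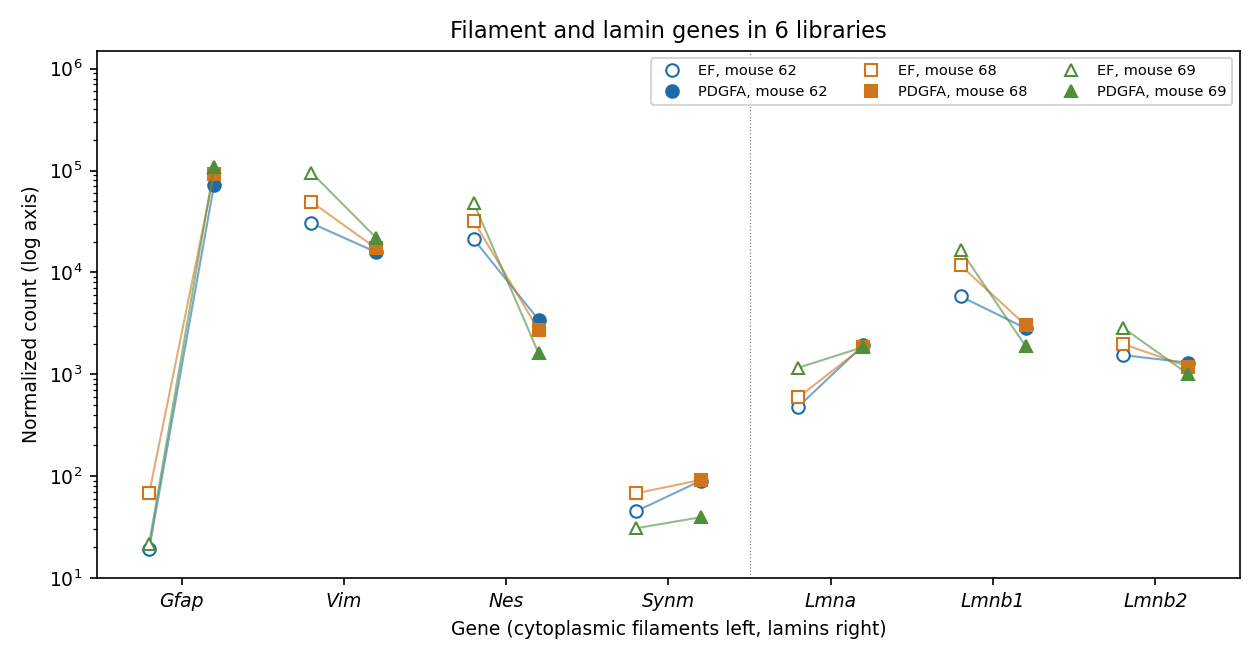
Normalized counts on a log axis for the 7 genes, 1 point per library, open symbols for EF and filled symbols for PDGFA, with a line joining the libraries of each mouse. Gfap lies at 19.2 to 67.6 in EF and at 72518 to 107416 in PDGFA, Vim, Nes, Lmnb1 and Lmnb2 slope down in every mouse, Lmna slopes up, and Synm stays between 30.7 and 91.7.

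Gfap encodes the glial filament protein that is used as an astrocyte marker. It lies at chr11:102887336-102900912 on the minus strand (GRCm38, GENCODE M21, as for the genes below). In EF it was barely detected, at 19.2 in mouse 62, 67.6 in mouse 68 and 21.7 in mouse 69, which are 20, 60 and 17 reads. In PDGFA it was 72518, 93063 and 107416 in the same mice. The groups lay far apart, with the EF library of mouse 68 above the other EF libraries. Mean levels were 36.1 ± 27.2 in EF and 90999 ± 17540 in PDGFA, a 2518-fold difference of means, and the log2 fold change was 11.48 (SE 0.44, limma adjusted p = 9.53e-06). By log2 fold change this rise ranked 2 among the 17068 tested genes. Gfap took 0.216%, 0.280% and 0.314% of all recovered reads in the PDGFA libraries of mice 62, 68 and 69. With 17 to 60 reads, counting error in EF is wide: the exact 95% Poisson interval for mouse 69 ran from 12.7 to 34.8 normalized counts, and for mouse 68 from 51.5 to 87.0, which covers counting error only.

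Vim encodes vimentin, the type III filament protein of progenitors and many other cells and the usual polymer partner of nestin, and lies at chr2:13573927-13582826 (plus strand). It stood at 30328, 49218 and 95274 in EF for mice 62, 68 and 69, and at 15760 (mouse 62), 17152 (mouse 68) and 21763 (mouse 69) in PDGFA. Every PDGFA library was below every EF library, but the EF libraries themselves spread 3.14-fold, against 1.38-fold in PDGFA. The mean fell 3.20-fold, from 58273 ± 33407 to 18225 ± 3142, with a log2 fold change of -1.53 (SE 0.39, limma adjusted p = 0.0186). The call was lost without the PDGFA library of mouse 62 (log2 fold change -1.43, adjusted p = 0.0666) or that of mouse 68 (-1.49, adjusted p = 0.0639). Over all 13 alternatives the adjusted p ran from 1.25e-04 to 0.0666.

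Nes encodes nestin, the long type IV filament protein used as a marker of neural stem and progenitor cells, and lies at chr3:87971078-87980451 (plus strand). EF held 21108, 31894 and 48051 for mice 62, 68 and 69, and PDGFA held 3420, 2705 and 1600. The mice ran in opposite orders in the 2 media: mouse 69 was highest in EF and lowest in PDGFA. The mean fell 13.1-fold, from 33684 ± 13560.5 to 2575 ± 917, and the log2 fold change was -3.70 (SE 0.36, limma adjusted p = 2.53e-04). Within a mouse the log2 difference was -2.63 in mouse 62, -3.56 in mouse 68 and -4.91 in mouse 69.

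Synm encodes synemin, a large filament protein that joins vimentin or desmin filaments and does not polymerise alone, and lies at chr7:67730160-67759742 (minus strand). In PDGFA it stood at 90.0, 91.7 and 39.4 in mice 62, 68 and 69, from 44 to 106 reads. EF libraries held 45.0, 67.6 and 30.7, from 24 to 60 reads. The groups overlapped, since the PDGFA library of mouse 69 lay below the EF libraries of mice 62 and 68. The log2 fold change was 0.59 (SE 0.46, limma adjusted p = 0.345, range over the alternatives 0.148 to 0.655), and a change was not detectable at this depth and spread. Each mouse was nonetheless higher in PDGFA, by 0.98, 0.43 and 0.35 (log2). Synm shares 84 exon bases with Ttc23 and 426 with Gm45102, both on the opposite strand, and the library kit does not mark strand.

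The sequences before the start sites of Gfap and Nes are printed because these cytoplasmic filament genes had the largest rise and the largest fall among the 7. RefSeq promoters of GRCm38.p6 were found for 6 of the 7 genes, all but Lmnb1. Each stretch is given 5′ to 3′ on the gene's own strand, in lower case with motif matches in capitals, and stops before the first annotated exon base. The Gfap stretch is chr11:102897201-102897450 (minus strand), which lies in an intron of a longer GENCODE Gfap transcript. The Nes stretch is chr3:87970843-87971077 (plus strand), upstream of the annotated gene.
Gfap: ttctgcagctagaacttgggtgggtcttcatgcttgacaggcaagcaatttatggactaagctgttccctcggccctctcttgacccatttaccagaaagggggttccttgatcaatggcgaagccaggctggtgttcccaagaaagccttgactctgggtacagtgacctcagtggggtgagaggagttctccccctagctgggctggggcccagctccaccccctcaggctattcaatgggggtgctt
Nes: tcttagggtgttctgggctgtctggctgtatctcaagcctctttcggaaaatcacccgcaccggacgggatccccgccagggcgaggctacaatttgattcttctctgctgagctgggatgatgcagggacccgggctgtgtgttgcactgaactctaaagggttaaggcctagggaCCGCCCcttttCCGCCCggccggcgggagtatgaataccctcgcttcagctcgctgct

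The 250 bases before each start were searched on both strands for 8 motifs: the CCAAT box (CCAAT), the TATA box (TATAAA), the GC box (GGGCGG), an NFI half-site (TTGGC), a STAT site (TTCNNNGAA), an AP-1 site (TGANTCA), an E2F core (TTGGCGC, which contains the NFI half-site) and the cell-cycle element CHR (TTTGAA). Over the 32851 promoters of the table, windows with a match made up 33.8% for CCAAT, 12.4% for TATAAA, 32.7% for GGGCGG, 41.5% for TTGGC, 7.02% for TTCNNNGAA, 6.75% for TGANTCA, 1.97% for TTGGCGC and 16.0% for TTTGAA. The Gfap window held none of these 8 strings. The start of the longer Gfap transcript lies upstream of this window and was not searched. The Nes window held 2 GC boxes, both in the strand opposite to the one printed. A match describes letters and shows neither binding nor use.

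Levels of different genes can be compared only per length, here as normalized counts per kilobase of annotated exons. In EF the order of mean levels was Vim at 12286 ± 7043, Nes at 5250.0 ± 2114, Lmnb1 at 3833 ± 1821, Lmnb2 at 497 ± 158, Lmna at 127 ± 62.2, Gfap at 8.57 ± 6.46 and Synm at 6.02 ± 2.34 per kilobase. Ranges over the 3 EF libraries overlapped between Vim and Nes, between Nes and Lmnb1 and between Gfap and Synm. In PDGFA the order of mean levels was Gfap at 21574 ± 4158, Vim at 3843 ± 662, Lmnb1 at 873 ± 206, Nes at 401 ± 143, Lmna at 321 ± 7.11, Lmnb2 at 272 ± 34.2 and Synm at 9.29 ± 3.74 per kilobase. There the ranges of Nes and Lmna and of Nes and Lmnb2 overlapped. With the principal transcript's length instead, Lmna (593 per kilobase) came above Nes (420.3 per kilobase) in PDGFA.

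The make-up of the 4 cytoplasmic filament genes differed between the media in every library. Vim held 66.0%, 67.5% and 72.8% of their summed counts per kilobase in EF for mice 62, 68 and 69, and Nes 33.9%, 32.3% and 27.1%. In PDGFA Gfap held 81.6%, 84.5% and 84.0%, Vim 15.8%, 13.8% and 15.1%, and Nes 2.53%, 1.61% and 0.823%. Gfap went from at most 0.104% of the pool in EF to the leading transcript in each PDGFA library. The pool itself overlapped between the media: 9694, 15372 and 27586 summed counts per kilobase in EF, and 21060, 26113 and 30309 in PDGFA.

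**Figure D2:**
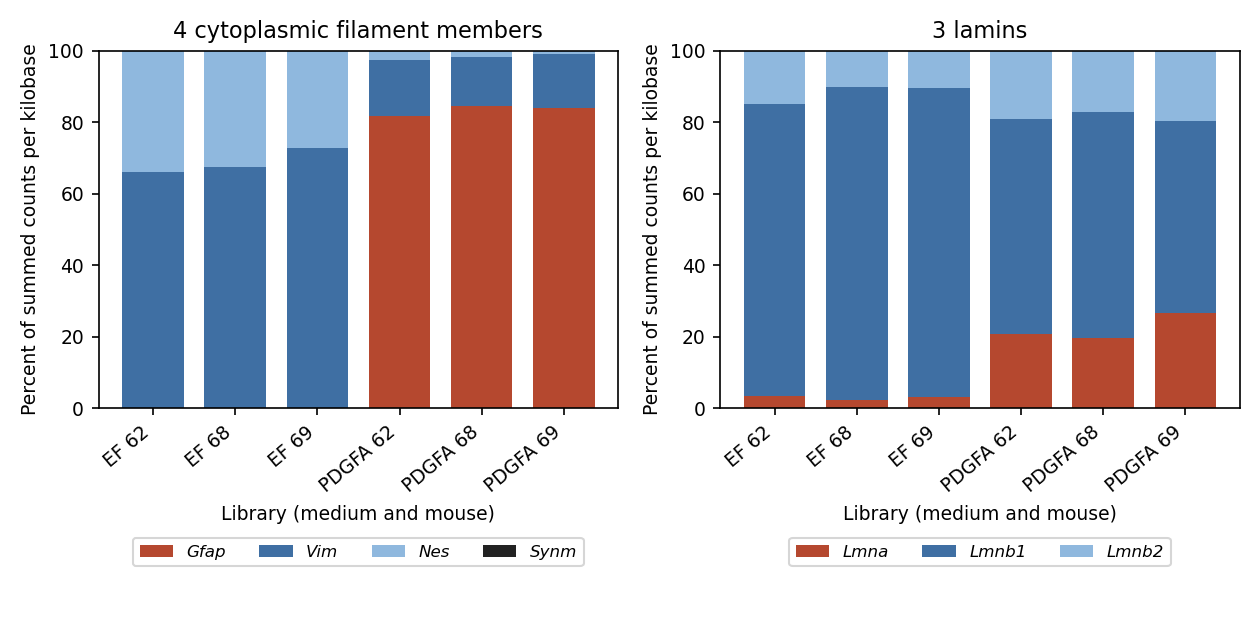
Stacked bars of the percent of summed normalized counts per kilobase that each gene held, in each of the 6 libraries, for the 4 cytoplasmic filament genes at left and the 3 lamins at right. Synm, at most 0.0585%, is too thin to see, and so is Gfap in EF. Gfap holds 81.6% to 84.5% in PDGFA, and Lmna goes from at most 3.42% in EF to at least 19.6% in PDGFA.

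Ratios were taken within a library as differences of log2(normalized count + 1). Apart from the added 1, which weighs on genes with few reads, they do not depend on the size factor. With 10 added instead, the Gfap to Vim shift given next was 12.61. In mice 62, 68 and 69 the Gfap to Vim log2 ratio of normalized counts went from -10.56, -9.49 and -12.03 to 2.20, 2.44 and 2.30, a shift of 13.01. The Nes to Vim log2 ratio went from -0.52, -0.63 and -0.99 in EF to -2.20, -2.66 and -3.76 in PDGFA, a shift of -2.17. Relative to Vim, Nes was thus lower in each PDGFA library. The Synm to Vim log2 ratio shifted by 2.12, of which the log2 fold change of Synm, not called, was 0.59 and that of Vim -1.53. None of these ratios overlapped between the groups. For Synm to Vim the gap was small, with -9.36 in the EF library of mouse 62 and -9.07 in the PDGFA library of mouse 69. The exact permutation p, two-sided over 3 against 3 libraries, was 0.1 for each of the 6 ratios computed, which is the smallest it can give, and stayed 0.1 after Benjamini-Hochberg adjustment over the 6. The Gfap to Vim shift was 13.61 without the EF library of mouse 68 and 12.34 without that of mouse 69, and the Synm to Vim shift was 1.41 without the EF library of mouse 69.

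Lmna encodes lamins A and C, the A-type lamins that stiffen the nucleus, and lies at chr3:88480147-88509956 (minus strand). It stood at 479.8 in mouse 62, 592 in mouse 68 and 1157 in mouse 69 in EF. In PDGFA it was 1921, 1852 and 1846, the tightest group of the 7 genes. The EF library of mouse 69 was the highest of its group and still below every PDGFA library. The mean rose 2.52-fold, from 743 ± 363 to 1873 ± 41.5, and the log2 fold change was 1.44 (SE 0.31, limma adjusted p = 0.00841). Lamin A and lamin C come from 1 gene by alternative 3′ ends, and the gene-level counts do not separate them.

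Lmnb1 encodes lamin B1, a B-type lamin that stays farnesylated and membrane bound. EF held 5806, 11675 and 16581 for mice 62, 68 and 69, and PDGFA held 2828, 3036 and 1891. The lowest EF library, that of mouse 62, lay above every PDGFA library, and mouse 69 again went from highest in EF to lowest in PDGFA. The mean fell 4.39-fold, from 11354 ± 5395 to 2585 ± 610, with a log2 fold change of -2.04 (SE 0.38, limma adjusted p = 0.00464).

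Lmnb2 encodes lamin B2, the other B-type lamin, and lies at chr10:80901203-80918245 (minus strand). Mice 62, 68 and 69 had levels of 1540, 1980 and 2866 in EF, against 1297, 1188 and 1007 after PDGFA. The groups did not overlap, but the gap was small in mouse 62, whose log2 difference was -0.25, against -0.74 in mouse 68 and -1.51 in mouse 69. The mean fell 1.83-fold, from 2129 ± 676 to 1164 ± 146, with a log2 fold change of -0.83 (SE 0.24, limma adjusted p = 0.0271). This was the least firm of the calls. It was lost without the EF library of mouse 68 (adjusted p = 0.0584) and without the PDGFA library of mouse 62 (0.0532), mouse 68 (0.0785) or mouse 69 (0.0981), and the adjusted p over all alternatives ran from 0.00419 to 0.0981.

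The groups did not overlap for 6 of the 7 genes, all but Synm, beside 55.5% of all tested genes: 2 were higher throughout PDGFA (29.2% of tested genes) and 4 lower (26.3%). For each of the 7 genes the difference had the same sign in all 3 mice, which for all but Synm follows from the lack of overlap. The share of all tested genes with the same sign in all 3 mice was not counted. In EF, Vim, Nes, Lmna, Lmnb1 and Lmnb2 were lowest in mouse 62, intermediate in mouse 68 and highest in mouse 69, an order that 4911 of the 17068 tested genes (28.8%) and 10 of 10 markers of dividing cells also had.

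**Figure D3:**
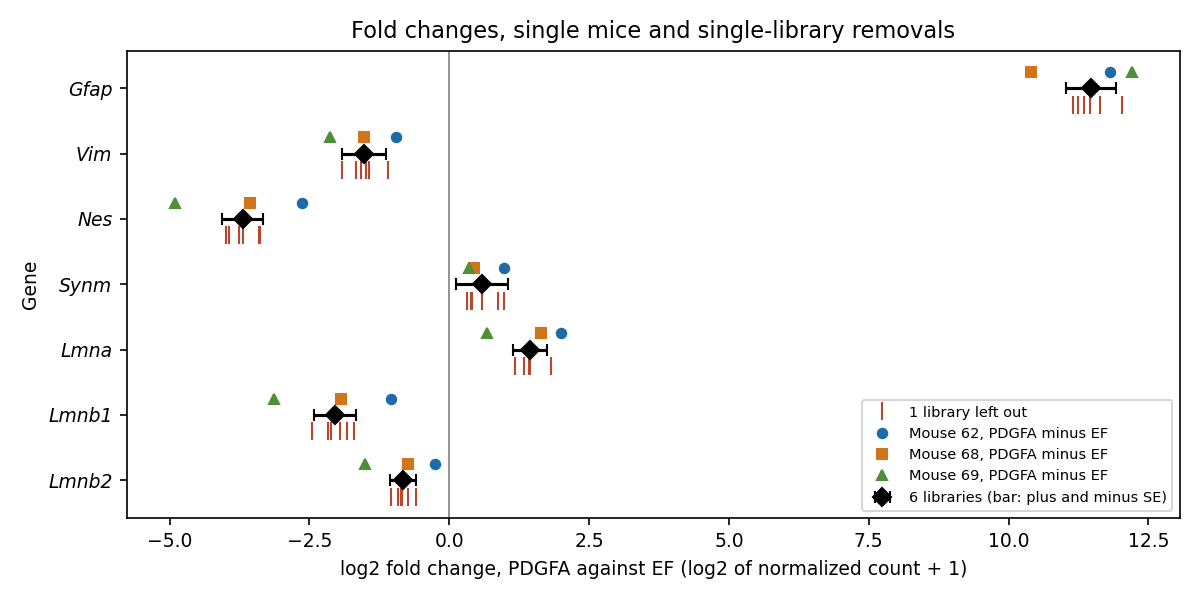
Log2 fold changes of PDGFA against EF for the 7 genes: the diamond with its bar is the value over 6 libraries plus and minus SE, the coloured symbols are the differences within each mouse, and the red ticks are the values with 1 library left out. Gfap sits near 11.48 and Nes near -3.70, the ticks of Vim run from -1.92 to -1.10 and those of Lmnb2 from -1.04 to -0.59, and no symbol of any gene crosses 0.

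The promoters of Lmna and Lmnb2 are printed because A-type and B-type lamins moved in opposite directions. No RefSeq promoter was found for Lmnb1, the B-type lamin with the larger fall. The Lmna stretch is chr3:88503387-88503602 (minus strand, GRCm38.p6, from RefSeq), in an intron of a longer GENCODE Lmna transcript, and the Lmnb2 stretch is chr10:80918246-80918495 (minus strand), upstream of the annotated gene.
Lmna: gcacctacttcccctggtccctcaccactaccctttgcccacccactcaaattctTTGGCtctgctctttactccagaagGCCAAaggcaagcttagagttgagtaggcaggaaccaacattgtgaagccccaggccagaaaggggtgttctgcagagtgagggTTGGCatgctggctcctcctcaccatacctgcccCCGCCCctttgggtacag
Lmnb2: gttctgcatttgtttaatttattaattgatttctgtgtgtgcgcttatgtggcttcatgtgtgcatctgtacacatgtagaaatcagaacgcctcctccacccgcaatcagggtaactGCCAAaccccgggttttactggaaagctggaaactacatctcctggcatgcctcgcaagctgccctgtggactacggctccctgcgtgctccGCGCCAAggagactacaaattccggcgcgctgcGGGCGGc

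The Lmna window held 3 NFI half-sites and 1 GC box. The Lmnb2 window held 1 GC box, 2 NFI half-sites and 1 E2F core, and the E2F core overlaps 1 of the half-sites. The half-site is in 41.5% of all promoters and the E2F core in 1.97%. Both genes have a further RefSeq start downstream, which is not printed. The start of the longer Lmna transcript lies upstream of the printed stretch and was not searched.

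Lmna held a larger part of the lamin transcripts in each PDGFA library. It held 3.42%, 2.25% and 3.07% of the summed lamin counts per kilobase in EF for mice 62, 68 and 69, and 20.7%, 19.6% and 26.6% in PDGFA. Lmnb1 remained the leading lamin in each library, at 81.6%, 87.5% and 86.6% in EF and 60.2%, 63.3% and 53.7% in PDGFA. The lamin pool was lower in PDGFA, at 1586, 1620 and 1190 summed counts per kilobase against 2402, 4505 and 6465 in EF, without overlap. With the length of the principal transcript, a choice made after seeing the data, the mean Lmna share was 4.93% in EF and 32.5% in PDGFA in place of 2.91% and 22.3%.

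As ratios formed in the way given above, Lmna to Lmnb1 was 11.1-fold higher in PDGFA. This was a log2 shift of 3.48 that ranged from 3.28 to 3.63 with 1 library left out. Lmna to Lmnb2 was 4.82-fold higher (log2 shift 2.27, range 2.18 to 2.40). Lmnb1 to Lmnb2 was 2.31-fold lower (log2 shift -1.21, range -1.42 to -1.09). Each of these ratios separated the groups without overlap, with the exact permutation p of 0.1 given above for all 6. Over the 3 mice taken as pairs the exact sign-flip p was 0.25, the smallest it can give.

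Genes that act on these filaments were read from lists by role, of which up to 3 genes in each direction are described. Of the other cytoplasmic intermediate filament genes, 14 of 21 were in the table and 11 were tested; 3 rose and 3 fell, beside 21.8% and 18.0% of all tested genes, around a median of 0.47 (log2 fold change). Bfsp2, whose product is phakinin of the beaded filament of the lens, rose from 29.8 ± 20.0 to 2376 ± 409, a log2 fold change of 6.47 (limma adjusted p = 5.91e-05). Its lens partner Bfsp1, filensin, rose from 9.49 ± 5.05 to 32.1 ± 5.83 (log2 fold change 1.74, limma adjusted p = 0.0185), on only 5 to 43 reads per library. Ina, the neuronal filament α-internexin, rose from 284 ± 241 to 985 ± 454 (1.97, limma adjusted p = 0.0364).

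The 3 that fell were Des, Prph and Iffo2. Des, the muscle filament desmin, went from 23.0 ± 13.1 to 1.52 ± 0.582 (log2 fold change -3.11, limma adjusted p = 0.00444) and was low in both media. Prph, peripherin of peripheral neurons, went from 17.3 ± 7.14 to 3.27 ± 3.39 (-2.31, limma adjusted p = 0.0254). It had 1 to 22 reads per library and a mean of 10.3 over the 6 libraries, just above the minimum of 10. Iffo2, an intermediate filament family orphan, went from 2127 ± 1238 to 477 ± 73.6 (-2.01, limma adjusted p = 0.00528). The calls of Ina, Bfsp1 and Prph each failed in 4 of the 6 fits with 1 library left out, with adjusted p up to 0.116, 0.0717 and 0.0964, and without the PDGFA library of mouse 62 or of mouse 68 only 1 gene of the list was called higher and 2 lower. The neurofilament genes Nefl (-0.50, limma adjusted p = 0.505) and Nefm (-0.37, limma adjusted p = 0.721) did not pass.

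Of the cytolinkers and filament-binding proteins, 12 of 15 were tested; 5 rose and none fell by limma, beside 39.8% of all tested genes called, with a median log2 fold change of 0.33. Plec, plectin, which ties intermediate filaments to actin, microtubules and junctions, rose 8.93-fold from 1377 ± 752 to 12303 ± 1701 (log2 fold change 3.32, limma adjusted p = 6.84e-04). Dtna, the dystrobrevin that binds synemin, rose from 1668 ± 529 to 6143 ± 2093 (1.87, limma adjusted p = 0.00268). Hspb1, a small heat shock protein with only 3 to 32 reads per library, went from 4.53 ± 1.63 to 20.2 ± 8.39 (1.90, limma adjusted p = 0.0175). Its call was lost in 3 of the 6 fits without 1 library, with adjusted p up to 0.0731. Without the PDGFA library of mouse 68 or of mouse 69, 2 of the list were called higher. At an unadjusted p under 0.05 limma, edgeR and DESeq2 each had 1 lower, Dmd (-0.31, limma adjusted p = 0.063). After adjustment edgeR called none lower and DESeq2 called 1. Without the EF library of mouse 62 limma called 2 lower, Dmd and Nudc.

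Of the kinases and proteases known to act on filaments all 13 were tested; 3 rose and 5 fell, beside 21.8% and 18.0% of all tested genes, around a median of -0.36 (log2 fold change). The falls were led by kinases of mitosis that phosphorylate vimentin or lamins. Aurkb, Aurora B, fell 131-fold from 2463 ± 1196 to 18.8 ± 1.59 (log2 fold change -6.84, limma adjusted p = 2.38e-05). Plk1, Polo-like kinase, went from 3884 ± 1934 to 38.8 ± 7.66 (-6.49, limma adjusted p = 3.45e-05), and Cdk1, the main mitotic kinase, from 3854 ± 1588 to 59.1 ± 34.2 (-6.06, limma adjusted p = 6.69e-05). The rises were of Capn1 (1.45, limma adjusted p = 0.0173) and Capn2 (0.44, limma adjusted p = 0.0401), which encode calpains that cleave filament proteins, and of Cdk5 (0.50, limma adjusted p = 0.0196), a kinase of nestin and neurofilaments. With the mouse as a block, Capn2 (adjusted p = 0.0791) and Cdk5 (adjusted p = 0.0579) were not called, and without the PDGFA library of mouse 62 or of mouse 68 none of the 3 was.

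On the nuclear side, 17 of 18 inner nuclear membrane and lamina partners were tested, of which 5 fell and none rose, beside 18.0% of all tested genes called lower and 39.8% called in all, with a median log2 fold change of -0.20. Lbr, the lamin B receptor, fell 5.23-fold from 4483 ± 1820 to 857 ± 128 (log2 fold change -2.31, limma adjusted p = 0.00102). Nemp1, an inner membrane protein, fell from 1646 ± 276 to 239 ± 21.0 (-2.77, limma adjusted p = 4.12e-05). Tmpo, whose products are the LAP2 proteins that bind lamins, fell from 10702 ± 4722 to 3038 ± 209 (-1.72, limma adjusted p = 0.00361). At an unadjusted p under 0.05 limma and DESeq2 had 0 higher, and edgeR had 1, Tor1aip1. After adjustment edgeR and DESeq2 called 0 higher. Without the EF library of mouse 68, 1 was called higher.

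The LINC complex bridges the lamina to the cytoskeleton through SUN proteins in the inner and nesprins in the outer nuclear membrane. Of its 7 genes 6 were tested; 2 rose and none fell, the median being a log2 fold change of 0.33, and these counts were the same in each of the 13 alternatives. The 2 called of 6 are near the 39.8% called over all tested genes. Syne1, nesprin 1, rose from 3293 ± 435 to 10601 ± 1040 (log2 fold change 1.69, limma adjusted p = 1.63e-04). Syne3, nesprin 3, which binds plectin, rose from 11.6 ± 10.5 to 224 ± 20.0 (4.46, limma adjusted p = 7.31e-04). Sun1 was at -0.13 (limma adjusted p = 0.442) and Sun2 at 0.36 (limma adjusted p = 0.0864) without passing the test. At an unadjusted p under 0.05 limma had 0 of the list lower, as did edgeR and DESeq2.

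Of the 6 lamin processing enzymes, all tested, 2 rose and none fell by limma, beside 39.8% of all tested genes called, with a median log2 fold change of 0.23. Fnta, the subunit shared by the protein farnesyl and type I geranylgeranyl transferases, rose from 1230.2 ± 40.4 to 4204 ± 179 (log2 fold change 1.77, limma adjusted p = 4.57e-05). Fntb, the farnesyltransferase β subunit, went from 862 ± 23.5 to 1130 ± 43.6 (0.39, limma adjusted p = 0.0466), with an adjusted p of 0.132 when the mouse was a block and up to 0.203 with 1 library left out. Zmpste24, which cleaves prelamin A, was at -0.52 (limma adjusted p = 0.0644). At an unadjusted p under 0.05 limma, edgeR and DESeq2 each had 2 of this list lower, Zmpste24 and the protease gene Rce1 (-0.55, limma adjusted p = 0.0821). After adjustment DESeq2 called 2 lower and edgeR 0. Without the EF library of mouse 62 limma called the same 2 lower.

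**Figure D4:**
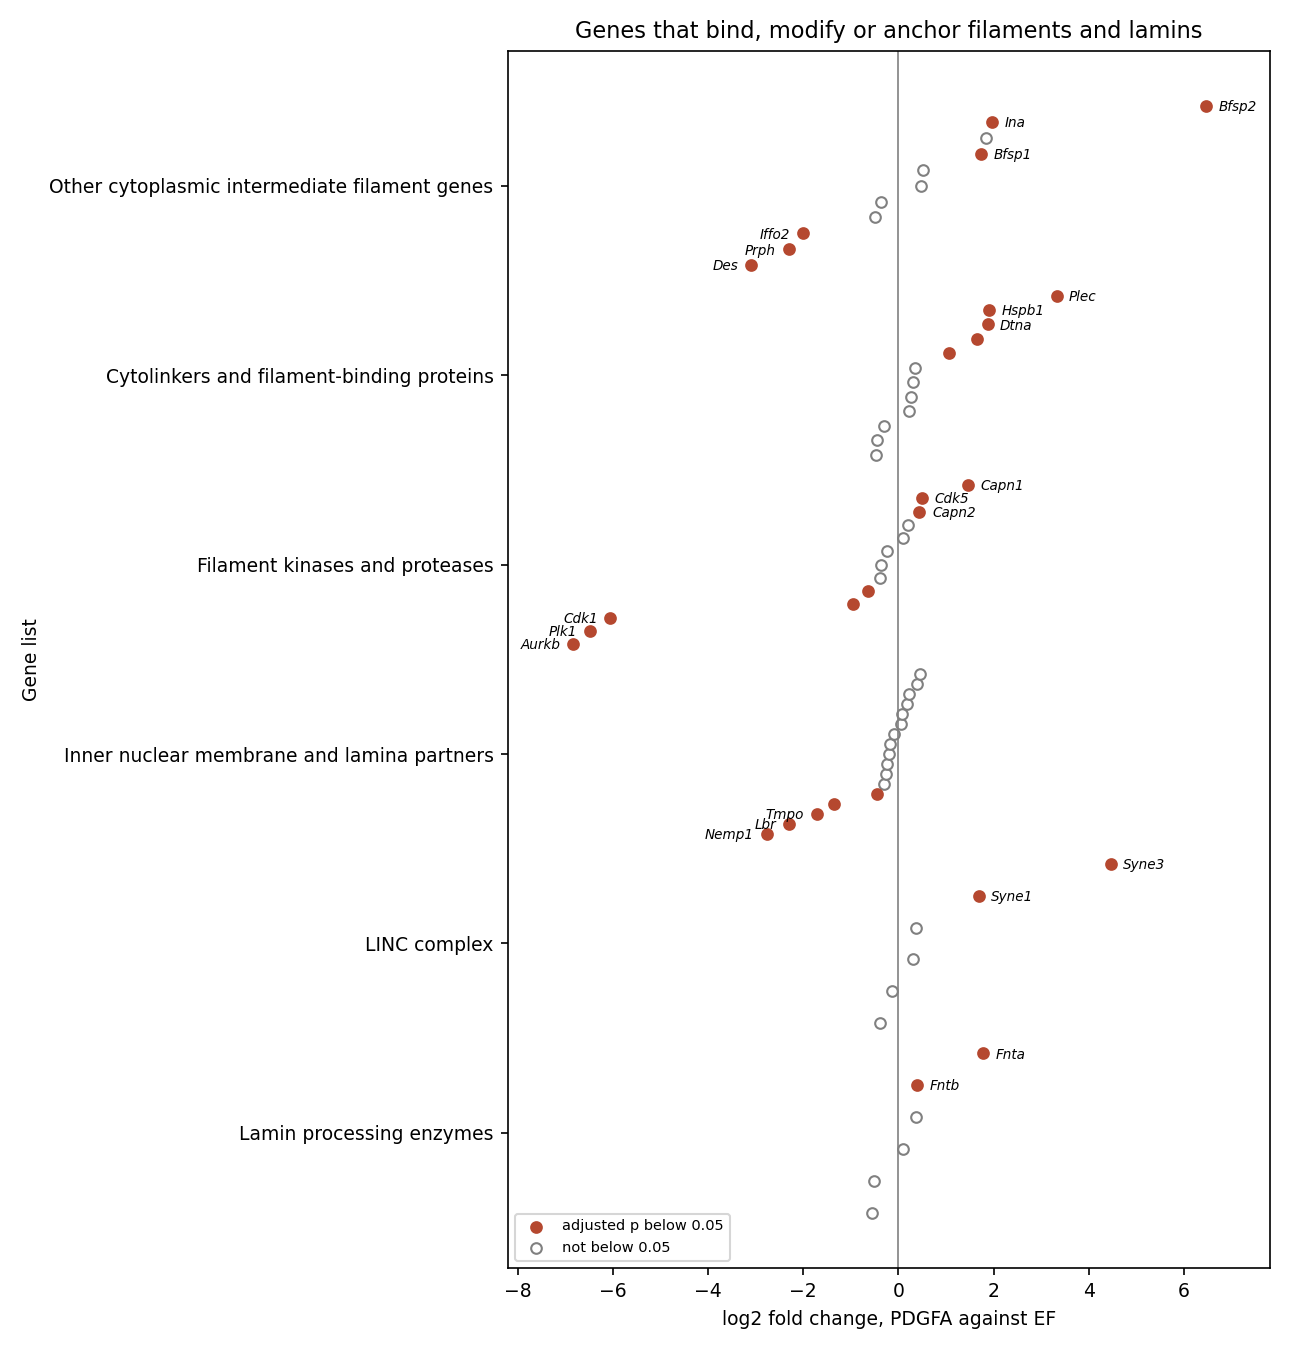
Log2 fold change of PDGFA against EF for each tested gene of the 6 lists, 1 point per gene, filled where the limma adjusted p was below 0.05; the genes named by rule are labelled. Bfsp2, Syne3 and Plec lie farthest right at 6.47, 4.46 and 3.32, and Aurkb, Plk1 and Cdk1 farthest left at -6.84, -6.49 and -6.06.

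Markers of several cell types moved with these genes, and their part in the results was not tested. In bulk RNA, fewer cells of a type and less RNA per cell cannot be told apart. All 10 markers of dividing cells fell beside Nes, Vim and Lmnb1, their summed normalized counts going from 48040 to 107334 in EF to 1933 to 2254 in PDGFA. Cdk1 and Plk1 belong both to these markers and to the filament kinases above. The neural stem and progenitor markers had a median log2 fold change of 0.30, with 4 of 10 higher and 4 of 10 lower. Their sum ranged from 111876 to 144786 in EF and from 44587 to 50491 in PDGFA, and Egfr and Ccnd2, a cyclin of neural progenitors that went from 57770 ± 6426 to 2139 ± 715, made up most of that difference. Over all tested genes 21.8% were called higher and 18.0% lower.

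Beside Gfap, 8 of 12 other astrocyte markers rose and none fell, beside 21.8% of all tested genes called higher, with sums of 64080 to 113708 in EF and 135413 to 213694 in PDGFA. Gja1, the astrocytic connexin 43, rose from 2010 ± 1027 to 32762 ± 13404 (log2 fold change 4.13, limma adjusted p = 5.57e-04), whereas Slc1a3, a glutamate transporter, was at 37348 ± 13582 and 33509 ± 6919 (-0.12, limma adjusted p = 0.771). At an unadjusted p under 0.05 limma had 0 of the astrocyte list lower, as did edgeR and DESeq2, whereas without the EF library of mouse 62 limma called 1 lower, Fgfr3. Oligodendrocyte markers moved further: all 11 tested of 12 rose, with sums of 2727 to 4487 in EF and 352644 to 433138 in PDGFA. Mbp, myelin basic protein, went from 60.7 ± 48.2 to 79175 ± 24063. Of 9 markers of oligodendrocyte precursors 4 rose and 3 fell, beside 21.8% and 18.0% of all tested genes, with sums of 81614 to 154316 and 129799 to 208127. Gpr17, of committed precursors, went from 1283 ± 2095 to 88744 ± 21170.5, and Olig1 from 50769 ± 10703 to 23378 ± 6256.

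Cells from outside the neural lineage also carry Vim and Lmna, so their markers were summed too. Of 8 microglial markers 2 were in the table, with sums of 11.5 to 44.7 in EF and 5.73 to 8.96 in PDGFA. Of 7 endothelial markers 3 were in the table, at 46.0 to 368 and 21.0 to 35.8. Of 9 fibroblast and pericyte markers 6 were in the table, at 87.1 to 178 in EF and 806 to 963 in PDGFA, most of the latter being Pdgfrb, a PDGF receptor, at 815 ± 95.8. Col1a1, the fibroblast collagen, was at 62.3 ± 26.1 in EF and 19.0 ± 5.22 in PDGFA. Of the 4 fibroblast and pericyte markers tested, 2 rose, Pdgfrb and Rgs5, and 1 fell, Col1a1. Over all tested genes 21.8% were called higher and 18.0% lower. The count of 2 higher was the same in all 13 alternatives. Of 5 Schwann cell markers 4 were tested and 2 fell, of 9 tested neuronal markers 3 rose, and of 4 tested ependymal markers 1 rose and 1 fell, shares near the 39.8% of all tested genes called.

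The genes with the nearest profile over the 6 libraries were found as the smallest Euclidean distance between centred log2 values. For Gfap these were Mbp at 1.44, C4b at 1.72 and Mag at 1.99, so the nearest neighbours of this astrocyte filament gene included 2 myelin genes. For Vim they were Rpa2 at 0.254, H2-Q4 at 0.319 and Nxt1 at 0.369, and for Nes H2ac7 at 0.441, Sema3c at 0.445 and H2bc7 at 0.559. For Synm they were Flrt2 at 0.482, Clec2l at 0.523 and Slc2a13 at 0.573. For Lmna they were Pkp4 at 0.344, Dipk2a at 0.358 and Cubn at 0.391, for Lmnb1 Adamts7 at 0.330, E2f8 at 0.419 and Adamts8 at 0.438, and for Lmnb2 Ruvbl2 at 0.107, Plekhh1 at 0.116 and Noc4l at 0.117. H2-Q4 and the histone genes H2ac7 and H2bc7 have near-identical copies, so their counts are uncertain. The distances describe 6 libraries of 2 media, so genes can lie close through a like group difference alone. How many genes do so was not counted.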

How the data were processed

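The authors deposited 1 table of normalized signal for 22057 genes: read counts per gene divided by a size factor per library. Per the submitters' processing notes the tools were FastQC, STAR and DESeq2 and the build mm10 (GRCm38), without versions. How strand was treated, and with which annotation reads were counted, is not given in these sources. Every value is a multiple of its library's lowest positive value (100% whole within 0.001), so reads were recovered. No gene in the table had fewer than 10 reads over the 6 libraries.

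Genes with a mean normalized count of at least 10 were tested with limma 3.58.1 in R 4.3.3 (mean trend, group as the only term). The alternatives were a block for the mouse, pseudocounts of 0.5 and 10 in place of 1, no filter, TMM scaling, edgeR 4.0.16 and DESeq2 1.42.0 on the recovered reads, and leaving out each library. Mouse numbers pair libraries because both came from 1 animal; deviations from group means correlated at -0.091 (mouse 62), 0.11 (68) and -0.11 (69). Ratios were compared with exact permutation tests in scipy 1.17.1.

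The genes followed and the gene lists were chosen with earlier results of these data known. From each partner list up to 3 called genes in each direction with the largest log2 fold change could be named. From each marker list the 2 most abundant genes could be named, and for each gene followed the 3 nearest profiles. Nefl, Nefm, Dmd, Nudc, Fgfr3, Sox2, Hes5, Msi1, Prom1, Rgs5, Sun1, Sun2, Zmpste24 and Rce1 were named outside that rule after their values were seen. An item that the rule allows is not reported here. Gene models and lengths are from GENCODE M21 (GRCm38), and promoter sequences from RefSeq (GRCm38.p6). Depth limits the precision of genes with few reads.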

Additional observations from a re-analysis of the deposited data

How the results depend on the processing

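Each of the 7 genes kept its direction in all 13 alternatives. Gfap, Nes, Lmna and Lmnb1 were called in all 13, Vim in 11, Lmnb2 in 9 and Synm in 0. With 1 library left out, the log2 fold change of Vim ran from -1.92 to -1.10 and that of Lmnb2 from -1.04 to -0.59; both lost their call in some of these fits, which have fewer samples, and a group left with 2 libraries shares its spread with the other. In the same 6 fits the genes called higher ranged from 2306 to 4213 and those called lower from 1855 to 3848, both lowest without the PDGFA library of mouse 68. Without a filter 4259 were called higher and 3355 lower. With the mouse as a replicate block, 3213 genes were called higher and 2626 lower, against 3720 and 3076 without it. The block changed the call of none of the 7 genes. Without the PDGFA library of mouse 69, 9 of the 10 markers of dividing cells were called lower. With the length of the principal transcript, chosen after seeing the data, the mean Gfap share in PDGFA was 79.6% in place of 83.4%, and the mean Lmna share was 4.93% in EF and 32.5% in PDGFA. Synm and, in EF, Gfap rest on so few reads that small differences were not detectable.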
